A study of Mus musculus with 6 samples.

Results

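The oogenesin genes Oog1, Oog2, Oog3 and Oog4 were taken from the table of read counts by their symbols, and all 4 were found among its 25239 genes. Counts came from 6 libraries of the mouse, each labelled as a single germinal vesicle (GV) oocyte, a stage in which the nucleus is intact and meiosis is arrested, profiled by Smart-seq3, a full-length method primed on poly(A) tails. Per the labels, cumulus-oocyte complexes came from female CD-1 mice (an outbred stock) 4 to 6 weeks old. The water group held 3 oocytes injected with water, and the phthalate group held 3 oocytes that received a phthalate metabolite mixture in the same way, whose members and doses the labels do not give. Complexes of both groups were then kept in maturation medium with 10% fetal bovine serum, 200 mIU/mL follicle-stimulating hormone and 50 µg/mL sodium pyruvate until collection. The titles number 3 oocytes per group, but the extraction text can also be read as 1 oocyte for each group. If so, the 3 libraries of a group would be repeats of 1 cell, and every spread over oocytes given here would be technical. No animal or culture is named, so each group counts as 1 sample, no test across oocytes was made, and every oocyte's value is given instead.

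Oogenesins are leucine-rich repeat proteins of the PRAME family, a group that has multiplied in rodents into clusters of similar genes. Oog1 was first described as a transcript restricted to oocytes and early embryos, and its protein has been reported to bind Ras and an exchange factor of the Ras-like GTPase Ral. The best-known relative, human PRAME, acts as a substrate receptor of a ubiquitin ligase built on the scaffold CUL2. Where such genes are near-identical copies, the assignment of a read to one of them depends on the few bases in which they differ.

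Total gene counts ranged from 252267 to 300917 per oocyte. The oocyte markers Gdf9 (2184 to 3296 counts) and Zp3 (575 to 1180 counts) were high in every library. Some other oocyte genes were low: Figla had 0 to 18 counts, with the 0 in phthalate oocyte 1, and Sohlh1 was at 0 in all 6 libraries. Others lay between, such as Nobox with 114 to 150 counts. The 20 cumulus and granulosa markers, which would show RNA of the surrounding follicle cells, summed to between 11 and 39 counts per library, and 10 of them, among them Amh and Foxl2, were at 0 throughout. Nr5a2 alone had 8 to 32 counts per library.

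Oog2, Oog3 and Oog4 lie on chromosome 4 and Oog1 on chromosome 12 (GENCODE M21, GRCm38). Oog4 spans chr4:143437164-143450324 on the minus strand, Oog3 chr4:144157557-144162663 on the minus strand and Oog2 chr4:144190719-144196934 on the plus strand, 28056 bases beyond the end of Oog3. Oog1 spans chr12:87602688-87608850 on the plus strand. No other gene of the RefSeq table overlaps any of the 4. The longest coding sequences of Oog1, Oog2, Oog3 and Oog4 hold 1488, 1428, 1500 and 1506 bases. Between members, aligned coding bases were identical at 74.0% (Oog2 with Oog4) to 81.3% (Oog1 with Oog3).

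Oog1 has a far closer copy outside the named family. Gm2042, a protein-coding gene at chr12:87954080-87960683, begins 345230 bases beyond the end of Oog1 and differed from it at 1 of 1488 aligned coding bases. Gm10436 (Pramel51 in RefSeq), also on chromosome 12, was identical to Oog1 at 99.3% of the aligned coding bases. Gm13023 (Pramel25) and C87977 (Pramel29), on chromosome 4, were identical at 96.4% and 96.2%. The stretches below show this for coding bases 64 to 153 of Oog1 and the bases aligned with them, the first stretch without a gap in any of the genes compared. Capitals mark the letters that differ from Oog1.
Oog1: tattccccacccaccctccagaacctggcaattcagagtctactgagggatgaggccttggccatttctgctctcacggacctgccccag
Gm2042: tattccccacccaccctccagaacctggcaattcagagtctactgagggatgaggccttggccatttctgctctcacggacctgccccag
Gm10436: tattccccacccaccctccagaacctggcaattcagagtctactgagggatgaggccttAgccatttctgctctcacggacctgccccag
C87977: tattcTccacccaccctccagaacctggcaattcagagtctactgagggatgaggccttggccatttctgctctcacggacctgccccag
Oog4: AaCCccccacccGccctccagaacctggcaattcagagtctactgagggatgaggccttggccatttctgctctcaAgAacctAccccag
Oog2: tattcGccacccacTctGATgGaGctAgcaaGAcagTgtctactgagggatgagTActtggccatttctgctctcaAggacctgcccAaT
Oog3: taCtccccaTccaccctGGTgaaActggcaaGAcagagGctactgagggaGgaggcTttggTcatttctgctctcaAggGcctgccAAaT

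In these 90 bases Gm2042 had 0 letters unlike Oog1, Gm10436 and C87977 had 1 each, and Oog4, Oog2 and Oog3 had 7, 16 and 17. These bases separate Oog3 from Oog1, but not Gm2042 from Oog1.

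Oog1 had 0 counts in all 6 oocytes. A count of 0 allows up to 3 counts per library (a 1-sided limit, below the upper bound of 3.69 of the 2-sided exact Poisson interval), which is 9.97 to 11.9 CPM (the count per 1000000 gene counts of the library) depending on the library. Gm2042, its near-identical copy, was counted in each. Its counts were 224, 255 and 243 with water (oocytes 1, 2 and 3, the order kept throughout) and 214, 235 and 364 with phthalate. The value of 0 for Oog1 is therefore a value of reads that were assigned to that symbol, next to a copy with at least 214 in every library.

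How much of each transcript is shared was measured on the annotation itself. Of the 2494 distinct windows of 150 bases (the read length) in the transcripts of Oog1, 1737, or 69.6%, also occurred in a transcript of another gene, all of them in Gm2042, and 359 also in Gm10436. For Gm2042 the share was 58.2% of 3643 windows. Among the other members it was 10.2% for Oog2, where all 250 shared windows occurred in Gm13084 (Pramel26), 8.16% for Oog3, where all 140 occurred in Gm4350, a pseudogene that is not a row of the count table, and 0% for Oog4. With windows of 50 bases the shares were 89.0%, 33.4%, 19.7% and 0.707% for Oog1, Oog2, Oog3 and Oog4.

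The order of the members by shared sequence is thus Oog1, Oog2, Oog3, Oog4, and only Oog1 shared more than it kept for itself. It still had 757 windows of 150 bases of its own, so annotated sequence from which reads could be assigned to it exists. Over the 23051 genes of the table with such a window, 44.2% of the 19475 genes that share none were at 0 in all 6 oocytes, against 80.6% of the 718 genes that share at least 50%. The sources used here do not state how the authors treated reads that match several genes. Whether this sharing produced the 0 of Oog1 was not tested.

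**Figure D1:**
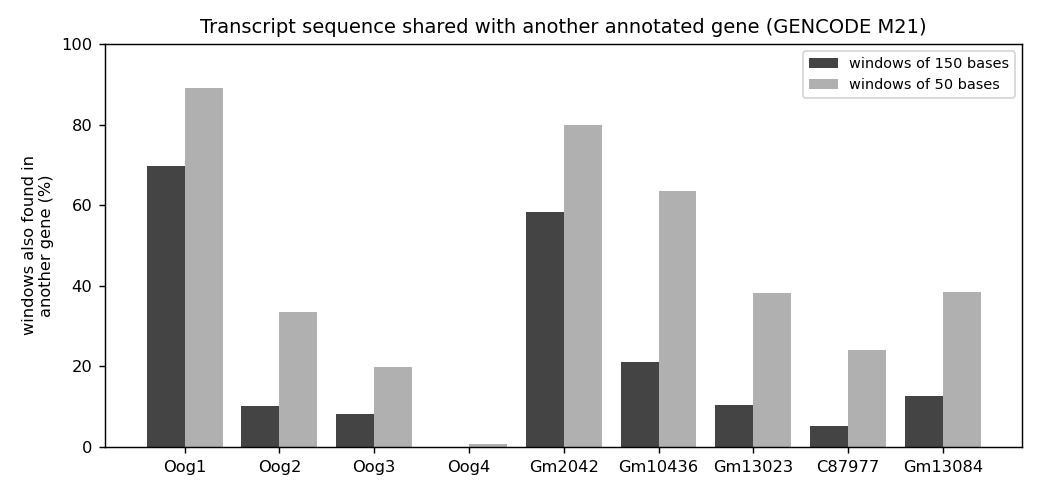
Share of distinct transcript windows of 150 bases (dark bars) and 50 bases (light bars) that also occur in a transcript of another annotated gene, in percent, for the 4 oogenesins and 5 close relatives. Oog1 shares 69.6% of its 150-base windows and Oog4 shares 0%.

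The members also share their proximal promoters. RefSeq holds a promoter for each (GRCm38.p6), shown here for the 120 bases before the start site, because the same 4 blocks stand in all of them. Capitals mark 3 words of at least 9 letters that occur in every member, GGGTGTGGC, ACAAAGGGA and TTCAGCTGAAA, and the TATA-like word TATATA. In Oog1, whose RefSeq start lies closer to the blocks, the further shared word AAATCTGAA also falls inside the window. The windows are chr12:87602545-87602664 (plus strand) for Oog1, chr4:144190597-144190716 (plus) for Oog2, chr4:144162652-144162771 (minus) for Oog3 and chr4:143450325-143450444 (minus) for Oog4.
Oog1: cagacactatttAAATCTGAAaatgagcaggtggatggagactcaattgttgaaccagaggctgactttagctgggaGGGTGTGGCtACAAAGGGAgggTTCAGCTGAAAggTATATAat
Oog2: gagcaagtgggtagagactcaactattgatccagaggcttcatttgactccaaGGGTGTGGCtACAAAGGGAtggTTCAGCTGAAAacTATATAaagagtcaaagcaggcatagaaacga
Oog3: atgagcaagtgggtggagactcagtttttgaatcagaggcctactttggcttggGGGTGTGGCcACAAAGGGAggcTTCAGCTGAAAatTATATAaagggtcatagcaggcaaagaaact
Oog4: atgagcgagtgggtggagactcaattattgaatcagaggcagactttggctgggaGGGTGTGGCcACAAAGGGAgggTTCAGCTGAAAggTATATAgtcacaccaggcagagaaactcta

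The blocks kept the same spacing in all members. Counted from the first base of GGGTGTGGC, the next blocks began 10, 22 and 35 bases further on in each. TATATA began at base -32 in Oog2, -31 in Oog3 and -30 in Oog4 relative to the start site, and at -8 in Oog1. These positions depend on the annotation: the RefSeq start of Oog1 lies upstream of the GENCODE start given above and that of Oog3 downstream of it, while the spacing between blocks does not depend on the start. The word TTCAGCTGAAA contains the E-box CAGCTG, an instance of CANNTG, the sequence class that basic helix-loop-helix factors bind. On either strand of the 250 bases before the start, CANNTG occurred in 66.2% of 32851 mouse promoters, CAGCTG in 4271 of the 32851 and TATATA in 5.25%. TTCAGCTGAAA occurred in 0.0426% of them.

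The whole layout of 4 blocks with this spacing occurred in 6 of the 32851 promoters. These were the 4 oogenesins, Gm2042 and Gm13084, the copy that shares windows with Oog2. All of them except Oog1 had counts in these oocytes, as did 12804 of the 25239 genes of the table, with sums over the 6 libraries of 707 for Oog4, 904 for Oog2, 1535 for Gm2042, 2561 for Oog3 and 2701 for Gm13084. The layout was not found in the promoters of Gm13023 and C87977, the most abundant relatives, which had 3300 and 3299 counts. TAATTG, a core that the oocyte homeobox factor NOBOX can bind, occurred in the 250 bases of Oog3 and Oog4 and in 7.17% of all promoters; TAATTA occurred in none of the members and in 4.84% of promoters. The words were picked because the members share them, and a match of letters does not show that a factor binds there.

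Oog3 was the most abundant of the 4 transcripts. Its counts were 329, 467 and 409 with water and 382, 379 and 595 with phthalate. On the CPM scale these were 1221, 1552 and 1441 in the water group and 1514, 1285 and 2164 in the phthalate group. Phthalate oocyte 3 was the highest of all and phthalate oocyte 2 the second lowest, so the groups overlapped. By mean CPM, Oog3 ranked 63 among the 12804 genes with a count, which places it among the abundant transcripts of the oocyte.

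Oog2 followed, with counts of 101, 140 and 161 under water and 111, 178 and 213 under phthalate. Its CPM was 375, 465 and 567 against 440, 603 and 775. The highest pair of values belonged to phthalate oocytes 3 and 2, but phthalate oocyte 1 lay below water oocytes 2 and 3. Oog2 ranked 267 by mean CPM.

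For Oog4 the counts were 137, 133 and 107 with water and 108, 88 and 134 with phthalate. Its CPM was 508, 442 and 377 against 428, 298 and 487. Here the highest value was in water oocyte 1 and the lowest in phthalate oocyte 2, and the groups overlapped as well. Oog4 ranked 360.

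Levels were compared between members per kilobase of the longest coding transcript (1917 bases for Oog2, 1865 for Oog3 and 1981 for Oog4). Mean CPM per kilobase was 820 for Oog3, 280 for Oog2 and 214 for Oog4. Oog3 was the highest in 6 of 6 oocytes, from 2.19 to 3.54 times the level of Oog2 and from 2.55 to 4.72 times that of Oog4. Oog2 lay above Oog4 in 5 of 6 oocytes, and in water oocyte 1 the order was turned, with 257 CPM per kilobase for Oog4 and 196 for Oog2. The ratio of Oog2 to Oog4 ran from 0.762 to 2.09, so these neighbours were not separated beyond their spread over oocytes. Oog1, at 0, stood below the others, with the limit on its assignment given above.

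**Figure D2:**
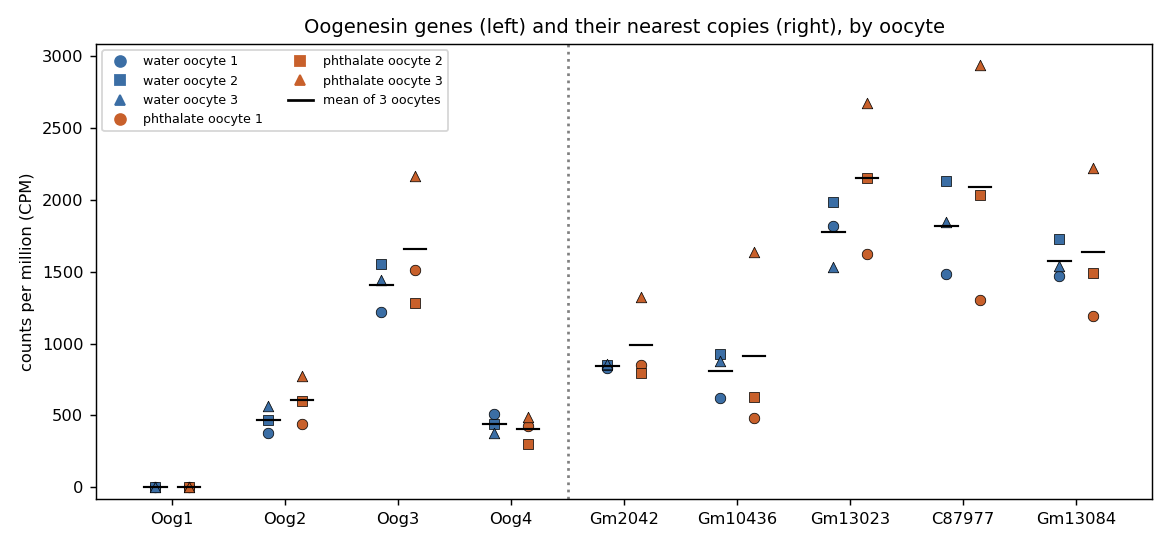
CPM of the 4 oogenesins (left of the dotted line) and 5 close relatives (right), 1 point per oocyte and a line for the mean of 3 oocytes. Oog1 is at 0 in every oocyte, and phthalate oocyte 3 (orange triangle) is the highest for Oog2, Oog3 and each of the 5 relatives but not for Oog4.

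The share of the 3 counted members within the family shifted little between oocytes for Oog3 and more for the others. Oog3 took from 58.02% to 63.6% of the family counts of an oocyte, Oog2 from 17.8% to 27.6% and Oog4 from 13.6% to 24.2%. In the group sums, Oog4 held 377 of 1984 counts in water, or 19.0% (95% exact binomial interval 17.3 to 20.8), and 330 of 2188 in phthalate, or 15.1% (13.6 to 16.7). The difference was -3.92 percentage points, and -1.85 without water oocyte 1. By oocyte, however, Oog4 took 24.2%, 18.0% and 15.8% in water and 18.0%, 13.6% and 14.2% in phthalate, so phthalate oocyte 1 lay within the water range and above its lowest value. The share of Oog2 was 20.3% (18.5 to 22.1) in water and 22.9% (21.2 to 24.8) in phthalate, and the intervals overlapped. For Oog3 it was 60.7% of 1984 counts in water and 61.97% of 2188 in phthalate. Intervals here and below cover counting error only. They are too narrow where PCR copies or both mates of a read pair were counted, and 68.0% to 71.1% of the counts from 1 to 20 in a library were even.

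**Figure D3:**
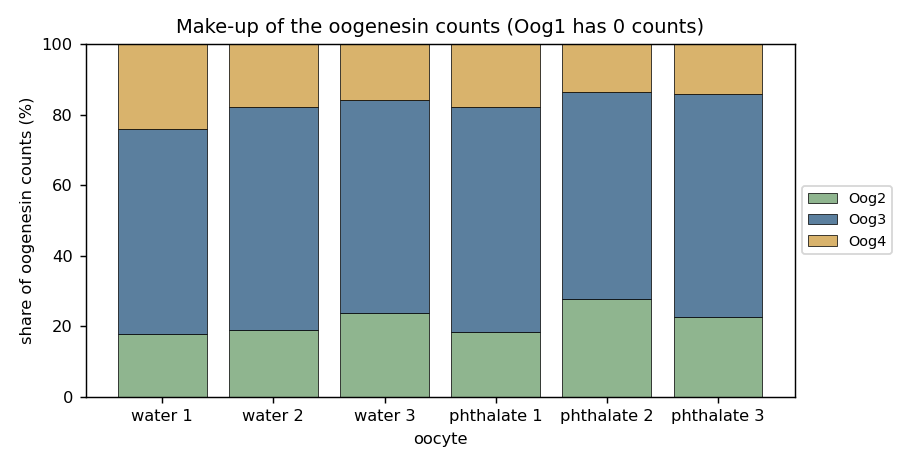
Share of Oog2, Oog3 and Oog4 in the summed oogenesin counts of each oocyte, in percent, as stacked bars. Oog3 makes up 58.02% to 63.6% in every oocyte, while Oog4 is largest in water oocyte 1 (24.2%) and smallest in phthalate oocyte 2 (13.6%).

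The comparison of phthalate with water asks whether the metabolite mixture goes with other levels of these transcripts. Group sums were 1205 counts for Oog3 in water (95% exact Poisson interval 1138 to 1275) and 1356 in phthalate (1285 to 1430). After scaling to the library sizes by TMM, a trimmed mean of gene ratios, the log2 ratio of phthalate over water was 0.24 (95% counting interval 0.13 to 0.36). For Oog2 the sums were 402 (364 to 443) and 502 (459 to 548), with a log2 ratio of 0.39 (0.20 to 0.59). For Oog4 they were 377 (340 to 417) and 330 (295 to 368), with a log2 ratio of -0.12 (-0.34 to 0.10). Thus Oog2 and Oog3 had higher sums in the phthalate group, and the interval of Oog4 included 0. Oog1 gets no ratio, since both groups were at 0.

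None of the 3 counted members reached a ratio of 1.5-fold in either direction. Among the 4644 genes that passed the filter on low counts, 6.96% were at least 1.5-fold higher in phthalate and 8.14% at least 1.5-fold lower. None of the 3 had groups without overlap, which 4.52% of the genes had with phthalate higher and 5.49% with phthalate lower. The median log2 ratio of all 4644 genes was 0.0089, and 90% of the 398 genes with a mean count of 100 to 500 lay between -0.29 and 0.39. Oog2 (0.393) stood just above the upper limit of that range (0.391), and the other counted members stood inside the range.

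Added over members, the family counts were 567, 740 and 677 with water and 601, 645 and 942 with phthalate. As a share of the library this was 0.210%, 0.246% and 0.239% in water and 0.238%, 0.219% and 0.343% in phthalate. Phthalate oocyte 3 stood above the other 5, which lay close together. The log2 ratio of the family sums was 0.21 (0.13 to 0.30). Without phthalate oocyte 3 it was -0.060, that of Oog3 -0.052 and that of Oog2 0.14. The higher phthalate sums of Oog3 and of the family thus rested on this oocyte, while Oog2 kept a smaller ratio in the same direction. The 20 follicle cell markers had 11 counts in phthalate oocyte 3, the lowest sum of the 6 libraries, and 8 of these were from Nr5a2. The oocyte identity genes took 4.93% of the counts of this oocyte, the highest of a range that began at 4.45%. The part of these differences in the family's level was not tested.

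**Figure D4:**
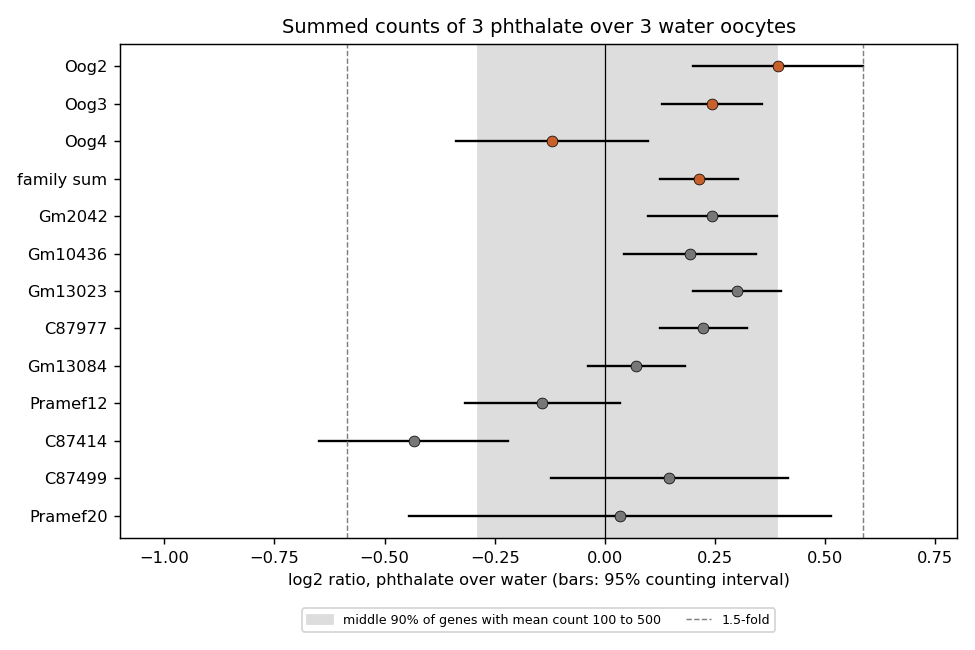
Log2 ratio of summed counts, phthalate over water, for the 3 counted oogenesins and their sum (orange) and 9 relatives (grey), with 95% counting intervals. The grey band holds 90% of genes with a mean count of 100 to 500 (-0.29 to 0.39), dashed lines mark 1.5-fold, and no point lies beyond them.

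The spread over the 6 oocytes was measured by the coefficient of variation (CV) of CPM. It was 26.7% for Oog2, 22.0% for Oog3 and 18.1% for Oog4, while the median of the 448 genes averaging at least 100 counts was 15.5%. Of these genes, 93.1% had a lower CV than Oog2, 82.1% a lower one than Oog3 and 64.5% a lower one than Oog4. Without phthalate oocyte 3 the CV of Oog3 was 10.3%, and without phthalate oocyte 2 that of Oog4 was 11.5%.

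The relatives in the table show how the rest of the family was measured. They were the 33 genes besides the members that carry a Prame, Pramel or Pramef symbol in the table or in RefSeq, and Gm2042, whose transcript aligns over at least 50% of a member's transcript. Of these 34 genes, 14 were at 0 in all oocytes, among them Prame itself and Pramel1, Pramel6 and Pramel7, and 9 passed the filter on low counts. The other 11 had at most 22 counts over all libraries. The 5 highest were all close copies of Oog1 or Oog2.

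Gm13023 led them with a mean of 1963 CPM, or 1085 CPM per kilobase. C87977 had 1955 CPM (799 per kilobase), Gm13084 1605 (889 per kilobase), Gm2042 917 (376 per kilobase) and Gm10436 863 (352 per kilobase). By these means, Gm13023 and Gm13084 lay above Oog3 (820 per kilobase), and each of the 5 lay above Oog2 and Oog4. This order did not hold in every oocyte. In phthalate oocyte 1, Gm13084 had 1189 CPM over 1805 bases and Oog3 1514 over 1865. Gm10436 had 480 CPM over 2453 bases there, so per kilobase it lay below Oog2 (230) and Oog4 (216). Gm2042, Gm10436 and Gm13023 are the genes with which Oog1 shares 150-base windows. Summed over these 3 copies, the counts were 882, 1129 and 927 with water and 745, 1056 and 1549 with phthalate.

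The 3 copies also had their highest value in phthalate oocyte 3. In CPM they summed to 3273, 3752 and 3267 in water and 2953, 3579 and 5634 in phthalate, so phthalate oocyte 1 was the lowest and phthalate oocyte 3 the highest. Gm10436 varied most, with 623, 924 and 881 CPM in water and 480, 630 and 1637 in phthalate, a CV of 48.1%. Of the genes averaging at least 100 counts, 99.8% had a lower CV. The log2 ratio of the 3 copies together was 0.26 (0.19 to 0.33). Adding all 4 copies that share a window with a member to the family gave 0.21. Both rested on phthalate oocyte 3: without it the first was -0.095 and the second -0.12.

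Of the 9 relatives that passed the filter, 7 had a higher sum in phthalate and 2 a lower one, with a median log2 ratio of 0.15 beside 0.0089 for all genes. None reached 1.5-fold, against 6.96% of all genes higher and 8.14% lower, and none had groups without overlap, against 4.52% and 5.49%. With 9 genes, a count of 0 is near these shares. The range ran from -0.43 for C87414 (Pramel34), with an interval of -0.65 to -0.22, to 0.30 for Gm13023 (0.20 to 0.40). Without phthalate oocyte 3, 2 of the 9 were higher and 7 lower, with a median of -0.14. That oocyte held the highest value of 6 of the 9, and Pramef12 (Pramel13), which shares no 150-base window with any gene, was lowest in it, with 495 CPM against 597 to 712 in the other 5. C87414 and Pramef12 were named after their values were seen. The high values in this oocyte therefore did not extend to every counted relative.

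Among 445 other genes that averaged 100 counts or more, Gm2042 followed the family sum most closely over the 6 oocytes, with a Pearson r of log2 CPM of 0.96. Next came Gkap1, which encodes an anchoring protein of a cGMP-dependent kinase (0.93), and G3bp2, which encodes an RNA-binding protein of stress granules (0.92). Their CPM in phthalate oocyte 3 was 1324, 469 and 1851, the highest of the 6 in each case. Over 6 points that share library totals, with 1 oocyte far above the others, these values are a description only, and 5 of the 445 genes had an r of at least 0.9. Between members, r was 0.69 for Oog2 with Oog3, 0.38 for Oog3 with Oog4 and -0.29 for Oog2 with Oog4.

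Genes of the Ras and Ral pathway, in which the reported partners of the Oog1 protein act, were measured in the same libraries. Of 28 listed genes, 27 were in the table and 12 passed the filter, 8 with a higher and 4 with a lower sum in phthalate and a median log2 ratio of 0.085. Rgl2, which encodes an exchange factor of Ral, had a mean of 189 CPM and a log2 ratio of 0.50 (0.17 to 0.83). Its CPM was 189, 99.7 and 187 with water and 246, 251 and 160 with phthalate, so the groups overlapped. None of the 12 was at least 1.5-fold higher, against 6.96% of all genes, and 2 were at least 1.5-fold lower, against 8.14%.

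Ralgapb, which encodes a subunit of the complex that turns Ral off, was 1 of these 2. Its counts were 35, 49 and 39 with water and 21, 20 and 18 with phthalate, so the groups did not overlap, as in 5.49% of all genes in that direction. Its log2 ratio was -0.99 (-1.46 to -0.53). Rasa1, which encodes a Ras inhibitor, was the other, with a log2 ratio of -0.64 (-1.38 to 0.06) from a mean count of 12.3. Rasa1 was named after its values were seen.

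The CUL2 ligase list had 18 genes in the table, of which 10 passed the filter, 3 higher and 7 lower, with a median log2 ratio of -0.075, which moved to 0.02 without phthalate oocyte 3 and to 0.06 without water oocyte 2. Its most abundant genes were Eloc, which encodes the elongin that links receptors to CUL2, at a mean of 567 CPM and a log2 ratio of 0.13 (-0.05 to 0.32), and Rbx1, which encodes the RING subunit, at 247 CPM and -0.30 (-0.58 to -0.01). One of the 10, Klhdc10, was at least 1.5-fold higher, against 6.96% of all genes, and it was named after its values were seen (0.67, interval -0.04 to 1.40, mean count 12.2). None was at least 1.5-fold lower, against 8.14%. Among the listed genes that did not pass were Cul2 itself, with 17 counts over all libraries, Elob, with 22, and Vhl, at 0.

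Of 12 listed transcription factors of the oocyte, 5 passed the filter, 3 higher and 2 lower, with a median log2 ratio of 0.11, which moved to -0.12 without phthalate oocyte 3 and to -0.16 without water oocyte 2. The most abundant were Nobox, the homeobox factor whose core sequence was searched above, at a mean of 454 CPM and a log2 ratio of -0.05 (-0.26 to 0.16), and Foxo3, a forkhead factor that keeps primordial follicles dormant, at 236 CPM and 0.11 (-0.18 to 0.40). Per kilobase, the mean of Nobox was 240 CPM, between Oog4 and Oog2.

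Among 23 oocyte identity genes in the table, 21 passed, 9 higher and 12 lower, with a median log2 ratio of -0.053. Gdf9, a growth factor secreted by the oocyte, and Padi6, a component of its cytoplasmic lattices, were the most abundant, at means of 9228 and 4770 CPM and log2 ratios of -0.06 and 0.19. Kit, the receptor of stem cell factor, was the 1 gene of the 21 at least 1.5-fold lower, against 8.14% of all genes, with a log2 ratio of -0.63 (-0.99 to -0.28) and groups that overlapped. Nlrp5, a maternal-effect gene named after its values were seen, was the 1 gene whose groups did not overlap, against 5.49% of all genes in that direction. Its CPM was 750, 827 and 768 with water and 721, 749 and 575 with phthalate, so the groups were nearly in contact, and its log2 ratio was -0.18. Of the cumulus and granulosa markers only Nr5a2 passed the filter, at a mean of 61.7 CPM and a log2 ratio of -0.64 (-1.26 to -0.05). Runx2, the next of these markers, had a mean of 7.96 CPM.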

How the data were processed

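The authors deposited 1 table of raw counts per gene symbol (25239 genes and 92 ERCC spike-ins), not normalized, with 1 column per oocyte. Per the submitters' processing notes, cutadapt, Trimmomatic, HISAT2, DESeq2 and mm10 were used. The counting tool, the annotation, the use of strand, molecular identifiers and reads that match several genes are not given in the sources used here.

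Computed here: CPM is a count per 1000000 gene counts. Ratios divide group sums by TMM-scaled totals (edgeR 4.0.16, R 4.3.3), over 4644 genes passing filterByExpr (minimum count 10, minimum total 15). Exact Clopper-Pearson and Poisson intervals are at 95%, counting error only. The ratio code was tested on simulated data. Shared windows used GENCODE M21 transcripts (23051 symbols matched), alignments BLAST+ 2.17.0 and promoters RefSeq. Relatives were found by symbol and transcript, not by the planned protein comparison, by a rule set after seeing the data. Each group is 1 sample because the labels name no animal or culture. Alternatives were scaling, read pairs, gene filter, mean over oocytes and each oocyte left out.

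Members and gene lists were chosen with earlier results of these data known. Named are the 4 members, the 5 relatives with the highest mean CPM, the 3 genes most correlated with the family sum, the 2 most abundant of each list, and list genes beyond 1.5-fold with a mean count of at least 20. One gene that this rule names is not reported here.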

Additional observations from a re-analysis of the deposited data

How the results depend on the processing

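Leaving out 1 oocyte gave log2 ratios from 0.14 to 0.58 for Oog2, from -0.052 to 0.43 for Oog3, from -0.33 to 0.10 for Oog4 and from -0.060 to 0.37 for the family sum. The lowest value of each came without phthalate oocyte 3. The highest came without phthalate oocyte 1 for Oog2 and without phthalate oocyte 2 for the others. Of the 9 relatives, 2 to 7 had a ratio toward phthalate, with 2 only without phthalate oocyte 3. With ERCC counts as library size the median of all genes moved by 0.12, giving 0.36 for Oog3 and 0.33 for the family sum. DESeq2 size factors, plain totals, removal of Rn45s, read pairs and means over oocytes kept these ratios within their counting intervals. Without a gene filter, 17.0% of genes were at least 1.5-fold higher and 19.1% lower, since genes with few counts were then included. The share of Oog4 in the family, phthalate minus water, ranged from -5.58 to -1.85 percentage points, that of Oog2 from 0.74 to 4.50 and that of Oog3 from 0.15 to 2.65. The family sum with its copies, the count of relatives and the sums of copies without each oocyte were added after seeing the data. No paired analysis was possible because no animal or culture is named that would link a water oocyte with a phthalate oocyte. Each group was counted as 1 sample, and no test was made. Oog1, at 0 counts in every library, gave no ratio under any setting. With 252267 to 300917 counts per library, ratios of genes with few counts are the least certain.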
